A study of Mus musculus with 22 samples.

Results

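The genes described are 7 genes of T cell adhesion and tissue entry: the integrin subunits Itgae, Itgb7, Itgal and Itgb1, the hyaluronan receptor Cd44, and the transcription factors Klf2 and Klf3. They were chosen by name, with earlier results of these data known. Counts of them beside the shares of all tested genes are therefore descriptions and not tests. A gene was taken from the probe set that lists its symbol and no other. Each of the 7 had 1 such probe set, out of 14860 genes with a probe set of 1 symbol. All 7 were among the 8545 genes tested, and each read above the median of the table on all 22 arrays, so none entered through 1 group alone.

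Integrins are receptors made of an alpha and a beta chain that hold a lymphocyte to other cells and to matrix. The alpha E chain (Itgae, CD103) pairs with the beta 7 chain (Itgb7) and binds E-cadherin on epithelium, while beta 7 with alpha 4 binds the gut vessel addressin MAdCAM-1. The alpha L chain (Itgal, CD11a) pairs with beta 2 to form LFA-1, a receptor for ICAMs, and the beta 1 chain (Itgb1) pairs with many alpha chains that bind fibronectin, laminin or collagen. CD44 binds hyaluronan and is a standard surface marker of activated and memory T cells. KLF2 is a zinc-finger factor that drives the sphingosine-1-phosphate receptor S1pr1, and so thymic exit, in mouse T cells. KLF3 is a related factor that mostly represses, and it has been linked to control of the beta 7 chain in mouse B cells.

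Gene expression was measured on 22 arrays of thymocytes sorted from the thymus of female C57BL/6 mice aged 8 weeks, as total RNA, with no treatment listed. The sort was by the gamma-chain segment, Vg1.1+ or Vg2+, and by CD24, carried by immature thymocytes, with CD73, which marks commitment to the gamma-delta lineage. The first stage was CD24+CD73- (4 arrays of Vg1.1+ and 3 of Vg2+ cells). It was followed by CD24+CD73+ (3 and 4 arrays), the step called gain of CD73 here, and by CD24-CD73+ (4 and 4 arrays), the step called loss of CD24. The labels call the replicates biological without naming separate animals or pools, so the p-values speak only of the spread among these arrays, some of which may be technical. Values are deposited log2 values after RMA, and differences are log2 differences of group means from limma. A gene is said to have risen or fallen where its Benjamini-Hochberg adjusted p over the 8545 tested genes was under 0.05. The number of arrays limits the precision.

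The labels were set against marker genes. Nt5e, which encodes CD73, rose by 4.30 ± 0.26 (log2, SE) at the gain of CD73 in Vg1.1+ cells (limma adjusted p = 6.48e-10) and by 3.80 ± 0.26 in Vg2+ cells (limma adjusted p = 2.08e-09). The 6 measured T cell and gamma-delta markers averaged 8.07 to 9.19 (log2) per array, and the constant regions of the T-cell receptor chains and Cd24a have no single-symbol probe set and were not analysed here. Markers of alpha-beta lineage thymocytes averaged 4.73 to 6.06 on the Vg1.1+ CD24+CD73- arrays and at most 4.79 on any other array. Leaving out Vg1.1+ CD24+CD73- replicate 1, the highest of these at 6.06, changed no call for the 7 genes. Lists for other cell types averaged 3.18 to 4.20 (myeloid and dendritic cells), 3.71 to 4.36 (B cells), 4.27 to 4.74 (thymic epithelium) and 3.97 to 4.53 (erythroid cells), with 6 of 15, 2 of 7, 5 of 8 and 1 of 3 measured genes past the filter. Those past it included C1qb, Cd68, Cd79b, Pax5, Epcam and Aire, and those below it included Csf1r, Adgre1, Cd14, Ms4a1, Cd79a and Foxn1. In bulk samples such as these, fewer cells of a type and less RNA per cell cannot be told apart. The SD of the values of an array ran from 1.61 to 2.09, with the narrowest arrays being Vg1.1+ CD24-CD73+ replicate 1 (1.61) and Vg2+ CD24+CD73+ replicate 3 (1.71).

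Cd44 and Itgae changed at each step in both subsets, each by more at the loss of CD24 than at the gain of CD73. At the gain of CD73 in Vg1.1+ cells, 2 of the 7 genes rose (Cd44 and Klf2) and 1 fell (Itgae), where 4.37% of all tested genes rose and 3.45% fell. At the same step in Vg2+ cells, 1 rose (Cd44) and 2 fell (Itgae and Klf3), against 5.82% and 6.41% of tested genes. At the loss of CD24 in Vg1.1+ cells, Itgae and Cd44 rose and Klf2 and Klf3 fell, against 4.28% and 6.92% of tested genes. In Vg2+ cells, Itgae, Itgb7 and Cd44 rose at that step and none of the 7 fell, where 10.3% of tested genes rose. Over both steps together, Itgae and Cd44 rose and Klf3 fell in each subset, with Itgb7 and Klf2 also higher in Vg2+ cells. The shares of all tested genes that rose or fell over both steps were 9.71% and 13.6% in Vg1.1+ cells, and 11.1% and 12.9% in Vg2+ cells. Itgal and Itgb1 passed the threshold in none of the 12 comparisons made.

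**Figure D1:**
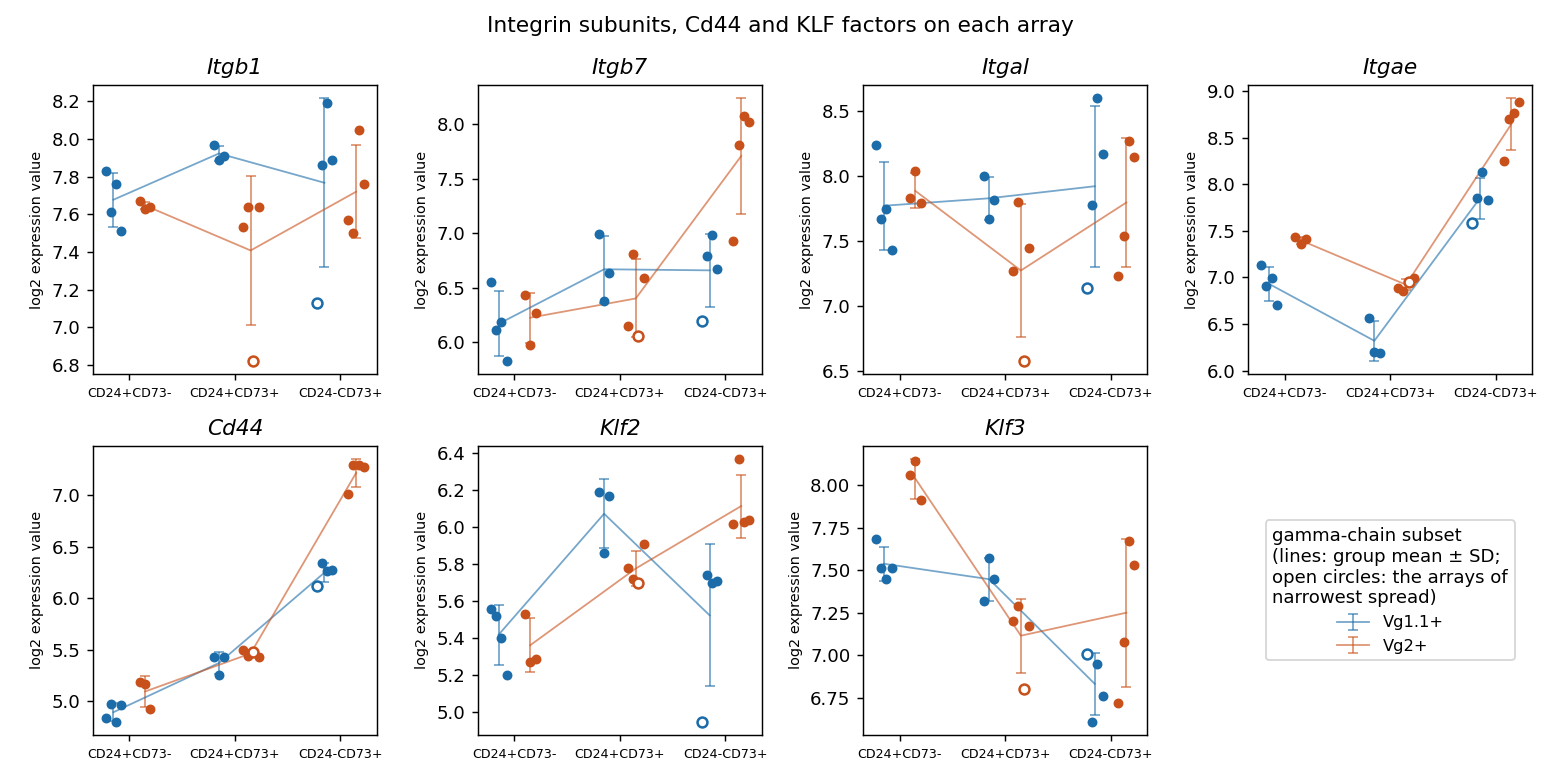
Log2 expression value of each gene (vertical axes, each with its own range) on the 22 arrays, by stage (horizontal axis), with blue for Vg1.1+ and orange for Vg2+ cells. Points are arrays, lines join group means with SD bars, and open circles are the 2 arrays of narrowest spread. Cd44 stands at 7.01 to 7.29 on the Vg2+ CD24-CD73+ arrays and at 6.12 to 6.34 on the Vg1.1+ arrays of that stage.

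Itgae, the alpha chain of the E-cadherin receptor, dipped and then rose in both subsets, and it read lower in Vg1.1+ than in Vg2+ cells at each stage. On the Vg1.1+ arrays its log2 value was 7.13, 6.91, 6.99 and 6.70 at CD24+CD73-, then 6.57, 6.20 and 6.19 at CD24+CD73+, and 7.59, 7.85, 8.13 and 7.83 at CD24-CD73+. On the Vg2+ arrays it was 7.43, 7.36 and 7.41, then 6.89, 6.86, 6.95 and 6.99, and 8.25, 8.70, 8.77 and 8.88. Within each subset no group overlapped another, and at each stage every Vg2+ array stood above every Vg1.1+ array. At the step to CD24-CD73+ Itgae rose 2.89-fold in Vg1.1+ cells (1.53 ± 0.15, log2 and SE, limma adjusted p = 4e-07) and 3.31-fold in Vg2+ cells (1.73 ± 0.14, limma adjusted p = 6.79e-09). These steps were not shown to differ between the subsets (difference -0.20 log2, 95% confidence interval -0.62 to 0.22, limma adjusted p = 0.616).

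The earlier fall of Itgae was smaller. It was 0.61 in size in Vg1.1+ cells (log2 difference -0.61 ± 0.15, limma adjusted p = 0.0102) and -0.48 ± 0.15 in Vg2+ cells (limma adjusted p = 0.038). In Vg1.1+ cells the call ended without CD24+CD73+ replicate 2 (limma adjusted p = 0.0661) or 3 (0.0723), and the adjusted p ran from 5.48e-05 to 0.0723 over the 16 alternatives. In Vg2+ cells the call ended without any of CD24+CD73- replicates 1, 2 and 3 (limma adjusted p = 0.106, 0.0869 and 0.109) or CD24+CD73+ replicates 1, 2 and 3 (0.0773, 0.0678 and 0.0605). It also ended with the replicate block (0.0807), no filter (0.0642), cyclic loess (0.0611) and the array SD as a covariate (0.0516). Over the 16 alternatives the adjusted p ran from 0.0202 to 0.109.

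Itgb7, the beta chain that pairs with alpha E, rose in Vg2+ cells, while in Vg1.1+ cells no change between stages passed the threshold. Its log2 value on the Vg2+ arrays was 6.43, 5.98 and 6.27 at CD24+CD73-, then 6.15, 6.81, 6.06 and 6.59 at CD24+CD73+, and 6.93, 7.81, 8.07 and 8.02 at CD24-CD73+. On the Vg1.1+ arrays it was 6.55, 6.11, 6.19 and 5.83, then 6.99, 6.38 and 6.64, and 6.20, 6.79, 6.98 and 6.67. All Vg2+ CD24-CD73+ arrays stood above the earlier Vg2+ arrays, but replicate 1 of that group, at 6.93, lay below Vg1.1+ CD24-CD73+ replicate 3 at 6.98. The step to CD24-CD73+ was 1.30 ± 0.24 in Vg2+ cells (2.47-fold, limma adjusted p = 0.000313) and -0.01 ± 0.26 in Vg1.1+ cells (limma adjusted p = 0.987). The Vg1.1+ difference was 0.5 ± 0.26 at the gain of CD73 (limma adjusted p = 0.321). It was 0.49 ± 0.24 over both steps (limma adjusted p = 0.15). These 2 values passed the threshold in 1 of 16 and 3 of 17 alternatives (limma adjusted p from 0.00914 to 0.744 and from 0.00497 to 0.318). A rise of Itgb7 in Vg1.1+ cells is therefore not excluded. In CD24-CD73+ cells Itgb7 was 2.07-fold lower in Vg1.1+ than in Vg2+ cells (-1.05 ± 0.24, limma adjusted p = 0.00433).

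The test of the difference between the steps of Itgb7 gave -1.31 ± 0.35 (limma adjusted p = 0.0311). That call held in 12 of 24 alternatives, with adjusted p from 0.0013 to 0.115. It ended without Vg1.1+ CD24+CD73+ replicate 1 (0.115) or 3 (0.0664), without Vg1.1+ CD24-CD73+ replicate 1 (0.0549), without Vg2+ CD24+CD73+ replicate 1 (0.0653) or 3 (0.0657), and without Vg2+ CD24-CD73+ replicates 2 (0.0538), 3 (0.0712) or 4 (0.0733), all limma adjusted p-values. It also ended with the replicate block (0.0683), with the array SD as a covariate (0.0583), without the narrowest arrays (0.097) and with the groups compared alone (0.0802).

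Itgal, the alpha chain of LFA-1, and Itgb1, the common beta chain of matrix receptors, were expressed at every stage without a change that passed the threshold. Itgal ranged from 7.43 to 8.24 (log2) at CD24+CD73-, from 7.67 to 8.00 at CD24+CD73+ and from 7.14 to 8.60 at CD24-CD73+ in Vg1.1+ cells. In Vg2+ cells it ranged from 7.79 to 8.04, from 6.58 to 7.80 and from 7.23 to 8.27, so its groups overlapped throughout. Itgb1 means lay between 7.41 ± 0.40 (SD, n = 4) in Vg2+ cells and 7.92 ± 0.04 (SD, n = 3) in Vg1.1+ cells, both CD24+CD73+, and those groups did not overlap (0.52 ± 0.21, log2 and SE, limma adjusted p = 0.225). Their means spanned 0.52 (Itgb1) and 0.65 (Itgal) on the log2 scale, where the median span over the tested genes was 0.50. The 95% confidence interval of the Itgal step to CD24-CD73+ was -0.55 to 0.73 in Vg1.1+ cells and -0.07 to 1.11 in Vg2+ cells, so changes within these bounds are not excluded.

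Both genes followed the spread of the array. The deviation of an array from its group mean correlated with the same deviation of the SD of the array at r = 0.956 for Itgb1 and 0.826 for Itgal, across 22 arrays that share the normalisation, against a median of 0.287 over all tested genes. The r was 0.658 for Klf2, 0.631 for Itgb7, 0.554 for Itgae, 0.26 for Cd44 and 0.253 for Klf3. With the SD of each array as a covariate, Itgb1 rose in Vg1.1+ cells over both steps (0.44, limma adjusted p = 0.000513), in Vg2+ cells over both steps (0.26, limma adjusted p = 0.0251) and at the last Vg2+ step (0.25, limma adjusted p = 0.0202). Itgal rose in that fit in Vg1.1+ cells over both steps (0.62, limma adjusted p = 0.0168, range 0.0168 to 0.948 over 17 alternatives). Over all alternatives the adjusted p of the Itgb1 comparisons ran from 0.000513 to 0.927, from 0.0251 to 0.933 and from 0.0202 to 0.739.

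**Figure D2:**
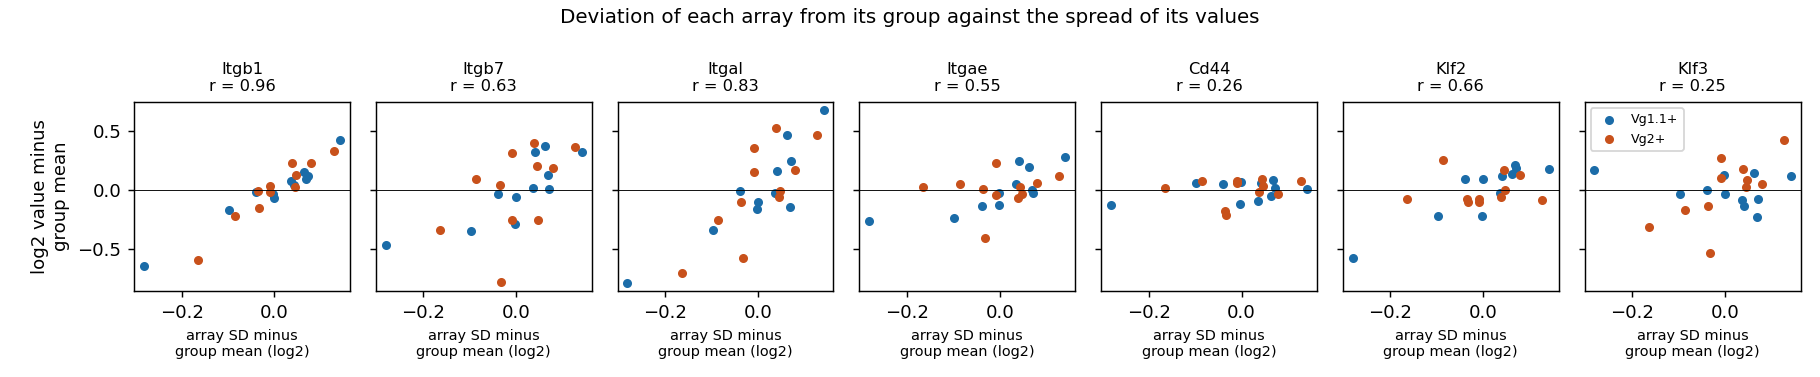
Deviation of each array from its group mean (vertical axis, log2) against the deviation of the SD of its values from the group mean (horizontal axis, log2), 1 panel per gene and 22 arrays in each, blue for Vg1.1+ and orange for Vg2+ cells. The points of Itgb1 lie close to a line (r = 0.956), and those of Cd44 stay near 0 at every array SD (r = 0.26).

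Cd44, the hyaluronan receptor, rose at every step in both subsets. Its log2 value on the Vg1.1+ arrays was 4.84, 4.97, 4.80 and 4.96 at CD24+CD73-, then 5.43, 5.25 and 5.43 at CD24+CD73+, and 6.12, 6.34, 6.26 and 6.27 at CD24-CD73+. On the Vg2+ arrays it was 5.19, 5.17 and 4.92, then 5.50, 5.44, 5.48 and 5.43, and 7.01, 7.29, 7.29 and 7.27. No stage overlapped another within a subset, and the subsets overlapped at each stage before CD24-CD73+, where all Vg2+ arrays stood above all Vg1.1+ arrays. The step to CD24-CD73+ was 0.88 ± 0.10 in Vg1.1+ cells (1.84-fold, limma adjusted p = 3.63e-06) and 1.75 ± 0.09 in Vg2+ cells (3.37-fold, limma adjusted p = 1.44e-11). The difference of the steps was -0.88 ± 0.14 (limma adjusted p = 0.000331) and passed the threshold in 24 of 24 alternatives, with adjusted p from 1.96e-05 to 0.00362. From the first to the last stage Cd44 rose 2.56-fold in Vg1.1+ cells and 4.36-fold in Vg2+ cells (limma adjusted p = 7.06e-10 and 1.38e-12).

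The first step of Cd44 was 0.48 ± 0.10 in Vg1.1+ cells (limma adjusted p = 0.00338) and 0.37 ± 0.10 in Vg2+ cells (limma adjusted p = 0.0176). The Vg2+ call ended without CD24+CD73- replicate 3 (limma adjusted p = 0.139), with the replicate block (0.0603) and with the groups compared alone (0.104). It held in 13 of 16 alternatives, with adjusted p from 0.00257 to 0.139. Among 7 tested genes of hyaluronan binding and turnover, Hmmr, a second hyaluronan receptor that is also a mitotic protein, fell at the step to CD24-CD73+ in Vg1.1+ cells (-1.17 ± 0.20, limma adjusted p = 0.000357) and in Vg2+ cells (-1.85 ± 0.19, limma adjusted p = 1.51e-07). No other gene of that list passed the threshold at that step. The list median was -0.32 in Vg1.1+ and -0.09 in Vg2+ cells, beside -0.04 and 0.02 over all tested genes.

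The KLF promoters are shown because KLF factors bind CACCC sequences, and Itgb7 and Cd44 because both rose in Vg2+ cells at the step to CD24-CD73+. The sequences are from RefSeq on the GRCm38.p6 build, 250 bases before to 50 after the gene start, written 5' to 3' along the gene, and 5 of the 7 genes had an entry. Capitals mark CACCC, searched on both strands and so written CACCC or GGGTG. Itgb7 lies at chr15:102231886-102232185, minus strand, Cd44 at chr2:102901616-102901915, minus strand, Klf2 at chr8:72318812-72319111, plus strand and Klf3 at chr5:64803271-64803570, plus strand.
Itgb7: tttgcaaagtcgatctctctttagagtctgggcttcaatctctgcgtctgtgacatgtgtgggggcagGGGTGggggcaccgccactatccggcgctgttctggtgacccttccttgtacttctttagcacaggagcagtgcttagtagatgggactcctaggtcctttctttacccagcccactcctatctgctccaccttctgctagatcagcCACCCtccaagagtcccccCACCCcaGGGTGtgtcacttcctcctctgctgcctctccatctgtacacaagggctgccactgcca
Cd44: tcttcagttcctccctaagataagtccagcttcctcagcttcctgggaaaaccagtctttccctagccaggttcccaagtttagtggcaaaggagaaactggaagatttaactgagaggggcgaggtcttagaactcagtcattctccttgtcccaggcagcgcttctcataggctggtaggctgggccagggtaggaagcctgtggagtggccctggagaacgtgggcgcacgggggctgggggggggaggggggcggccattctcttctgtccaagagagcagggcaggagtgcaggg
Klf2: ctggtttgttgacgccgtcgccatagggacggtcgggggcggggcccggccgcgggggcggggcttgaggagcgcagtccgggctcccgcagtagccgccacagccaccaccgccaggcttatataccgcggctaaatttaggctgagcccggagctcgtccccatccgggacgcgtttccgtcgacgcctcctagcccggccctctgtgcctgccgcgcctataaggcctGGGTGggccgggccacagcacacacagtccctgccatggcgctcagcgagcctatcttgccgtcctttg
Klf3: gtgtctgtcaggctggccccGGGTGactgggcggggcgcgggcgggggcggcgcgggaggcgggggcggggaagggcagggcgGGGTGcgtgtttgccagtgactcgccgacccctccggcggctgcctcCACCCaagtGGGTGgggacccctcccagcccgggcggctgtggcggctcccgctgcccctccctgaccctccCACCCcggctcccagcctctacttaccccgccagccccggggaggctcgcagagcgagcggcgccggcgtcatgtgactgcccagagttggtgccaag
CACCC occurred 4 times in the Itgb7 window, 5 times in that of Klf3, 1 time in that of Klf2 and 0 times in that of Cd44, while that of Itgb1 held 2. Of 32851 promoter windows of this length, 57.5% held at least 1 match, 3.1% at least as many as Itgb7 and 1.02% at least as many as Klf3. These counts describe letters in the windows and nothing on whether a factor is bound there.

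Klf2, the factor of S1pr1 and thymic exit, differed in course between the subsets. Its log2 value on the Vg1.1+ arrays was 5.56, 5.52, 5.40 and 5.20 at CD24+CD73-, then 6.19, 5.86 and 6.17 at CD24+CD73+, and 4.95, 5.74, 5.70 and 5.71 at CD24-CD73+. On the Vg2+ arrays it was 5.53, 5.27 and 5.29, then 5.78, 5.72, 5.70 and 5.91, and 6.02, 6.37, 6.03 and 6.04. The Vg1.1+ CD24+CD73+ arrays stood above both other Vg1.1+ groups, whereas the Vg2+ groups stood in the order of the stages without overlap. In Vg1.1+ cells Klf2 rose by 0.65 ± 0.16 (limma adjusted p = 0.0127) and then fell (-0.55 ± 0.16, limma adjusted p = 0.032). In Vg2+ cells the steps were 0.42 ± 0.16 (limma adjusted p = 0.106) and 0.34 ± 0.15 (limma adjusted p = 0.13), and Klf2 rose over both together (0.75 ± 0.16, 1.69-fold, limma adjusted p = 0.00145).

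The difference of the last steps of Klf2 was -0.89 ± 0.22 (limma adjusted p = 0.0221), and in CD24-CD73+ cells Klf2 was 1.51-fold lower in Vg1.1+ than in Vg2+ cells (-0.59 ± 0.15, limma adjusted p = 0.0116). The difference of the steps lost its call without Vg1.1+ CD24+CD73+ replicate 1 (0.0768) or 3 (0.0694), with the replicate block (0.0613) and with the groups compared alone (0.0718), and held in 20 of 24 alternatives (0.00529 to 0.0768). The Vg1.1+ rise lost it without CD24+CD73- replicate 4 (0.0515) or CD24+CD73+ replicates 1 (0.0832) or 3 (0.0731), within 3.41e-06 to 0.0832 over 16. The Vg1.1+ fall lost it without CD24+CD73+ replicate 1 (0.143) or 3 (0.131) or CD24-CD73+ replicate 1 (0.0818), with the replicate block (0.0743), with the array SD as a covariate (0.104), without the narrowest arrays (0.0767) and with the groups compared alone (0.197). It held in 9 of 16 alternatives (0.00126 to 0.197). The difference between the subsets lost it without Vg2+ CD24-CD73+ replicate 2 (0.05) and with the groups compared alone (0.134), within 0.00142 to 0.134 over 17, all limma adjusted p-values.

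Klf3, the related repressor, was lower at CD24-CD73+ than at CD24+CD73- in both subsets, and it passed the threshold at the loss of CD24 in Vg1.1+ cells and at the gain of CD73 in Vg2+ cells. Its log2 value on the Vg1.1+ arrays was 7.68, 7.51, 7.45 and 7.51 at CD24+CD73-, then 7.32, 7.57 and 7.45 at CD24+CD73+, and 7.01, 6.61, 6.95 and 6.76 at CD24-CD73+. On the Vg2+ arrays it was 8.06, 8.14 and 7.91, then 7.20, 7.29, 6.80 and 7.17, and 6.72, 7.08, 7.67 and 7.53. The Vg2+ CD24+CD73- arrays stood above all other arrays, and the Vg1.1+ CD24-CD73+ arrays stood below all other Vg1.1+ arrays. The first step was -0.92 ± 0.18 in Vg2+ cells (1.89-fold lower, limma adjusted p = 0.000922) and -0.09 ± 0.18 in Vg1.1+ cells (limma adjusted p = 0.873). The last step was -0.61 ± 0.18 in Vg1.1+ cells (limma adjusted p = 0.0254) and 0.13 ± 0.16 in Vg2+ cells (limma adjusted p = 0.637).

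Neither difference of steps of Klf3 passed the threshold. It was 0.83 ± 0.25 at the first step (limma adjusted p = 0.26) and -0.75 at the last (limma adjusted p = 0.0783), so that a difference in timing was not shown. Without Vg2+ CD24-CD73+ replicate 1 the latter was -0.92 and passed it (limma adjusted p = 0.00844, range 0.00223 to 0.198 over 24 alternatives). Without the same array Klf3 was also lower in Vg1.1+ than in Vg2+ CD24-CD73+ cells (-0.60, limma adjusted p = 0.00848, range 0.00113 to 0.382 over 17, against -0.42 and 0.111 with it). Over both steps Klf3 fell by 0.71 on the log2 scale in Vg1.1+ cells (limma adjusted p = 0.00256) and by 0.79 in Vg2+ cells (limma adjusted p = 0.00188). The last Vg1.1+ step lost its call without CD24+CD73+ replicates 2 (0.111) or 3 (0.081) or CD24-CD73+ replicates 2 (0.0732) or 4 (0.0574), with the replicate block (0.0543), with cyclic loess (0.121) and with the array SD as a covariate (0.0661). It held in 9 of 16 alternatives (5.13e-05 to 0.121, all limma adjusted p-values).

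**Figure D3:**
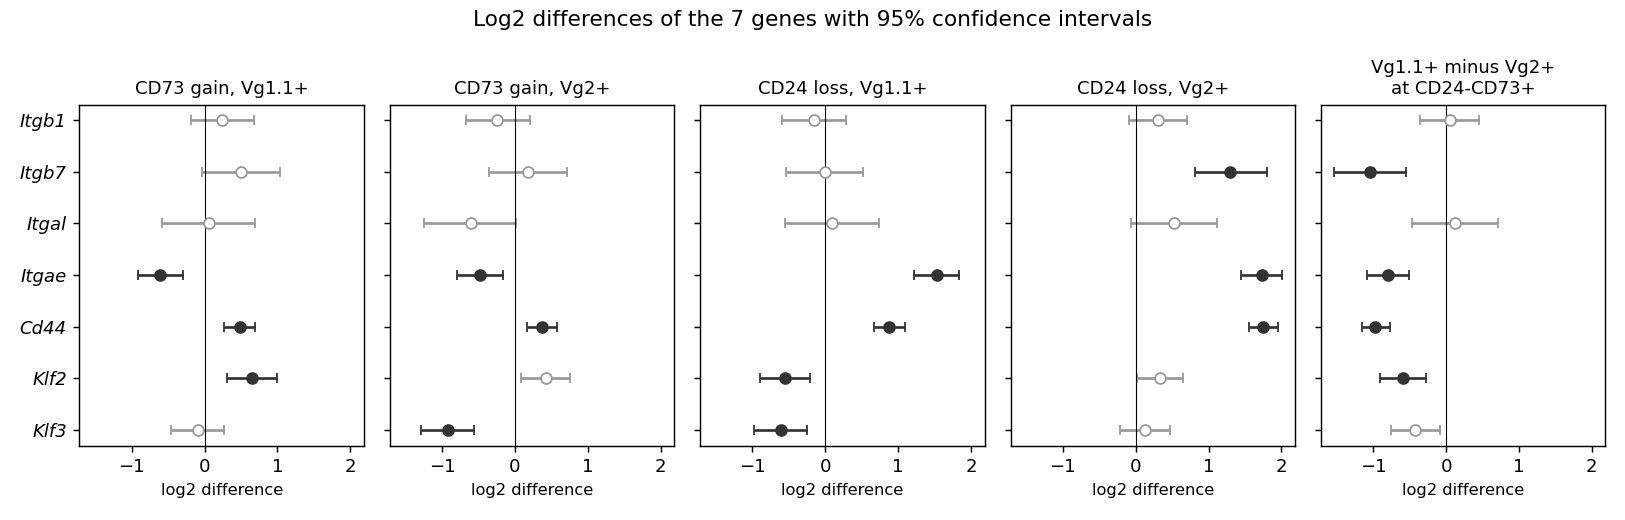
Log2 difference of each of the 7 genes (horizontal axis) with its 95% confidence interval, for gain of CD73, loss of CD24 and the subsets at CD24-CD73+, by subset. Filled points passed an adjusted p of 0.05 and open grey points did not. Itgb7 stands at 1.30 for loss of CD24 in Vg2+ cells and at -0.01 in Vg1.1+ cells.

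With the subsets compared stage by stage, differences past the threshold came in CD24-CD73+ cells. In CD24+CD73- cells 0 of the 7 genes differed between Vg1.1+ and Vg2+ in limma, where 2.05% of all tested genes did. In CD24+CD73+ cells 0 differed, where 0.0117% of tested genes did, and for the difference of the first steps 0 did, against 0.0936%. At an unadjusted limma p under 0.05 the counts were 2, 2 and 1 of the 7, in the same order. Of all tested genes 12.7%, 18.5% and 9.48% passed that unadjusted threshold. In CD24-CD73+ cells 4 of the 7, namely Itgb7, Itgae, Cd44 and Klf2, were lower in Vg1.1+ cells and none was higher, where 5.72% of tested genes were lower. For the difference of the last steps 3 of the 7 were lower in Vg1.1+ cells (Itgb7, Cd44 and Klf2), against 3.23% of tested genes. Itgae differed by -0.47 ± 0.15 in CD24+CD73- cells (limma adjusted p = 0.127), -0.60 ± 0.15 in CD24+CD73+ cells (limma adjusted p = 0.156) and -0.80 ± 0.14 in CD24-CD73+ cells (1.74-fold, limma adjusted p = 0.000307). Cd44 differed by -0.97 ± 0.09 in CD24-CD73+ cells (1.96-fold, limma adjusted p = 1.92e-07).

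A comparison of the subsets over the mean of the 3 stages was added after these values had been seen. In it 2 of the 7 genes were lower in Vg1.1+ cells, where 4.1% of tested genes were: Itgae (-0.62 ± 0.08, limma adjusted p = 3.11e-05) and Cd44 (-0.42 ± 0.06, limma adjusted p = 3.48e-05). The difference of Itgae held in 31 of 31 alternatives (adjusted p from 4e-07 to 0.000234). Cd44 is in that mean largely through CD24-CD73+ cells, since it differed by -0.20 ± 0.10 and -0.09 ± 0.10 at the earlier stages (limma adjusted p = 0.427 and 0.601).

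In the order of the 6 group means, Cd44 and Itgae were highest in Vg2+ CD24-CD73+ cells and next in Vg1.1+ CD24-CD73+ cells, with each of those neighbours past the threshold. Itgb7 was highest in Vg2+ CD24-CD73+ cells, 1.04 ± 0.26 above the next group (limma adjusted p = 0.00493), and the 5 other groups did not differ from their neighbours. Klf2 was highest in Vg2+ CD24-CD73+ and Vg1.1+ CD24+CD73+ cells, at 6.12 ± 0.17 (SD, n = 4) and 6.07 ± 0.19 (SD, n = 3), and no neighbours in its order differed. Klf3 was highest in Vg2+ CD24+CD73- cells at 8.04 ± 0.12 (SD, n = 3) and lowest in the last Vg1.1+ stage at 6.83 ± 0.18 (SD, n = 4), again with no neighbours past the threshold. The span from the highest to the lowest group mean exceeded that of 98% of tested genes for Itgae, 97.9% for Cd44, 93.3% for Itgb7, 89.6% for Klf3 and 74% for Klf2.

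Other genes of the integrin system were taken from lists. Of 5 other integrin subunits tested, Itgav, the alpha chain of vitronectin receptors, rose at the gain of CD73 in Vg1.1+ cells (0.92 ± 0.20, limma adjusted p = 0.00361) and in Vg2+ cells (0.99 ± 0.20, limma adjusted p = 0.00129). It then fell at the loss of CD24, by 0.67 and 0.54 on the log2 scale (limma adjusted p = 0.0283 and 0.0369). Itga5, the fibronectin receptor alpha chain, rose at that step in Vg2+ cells (0.40 ± 0.10, limma adjusted p = 0.00551). Itga6 rose over both steps in Vg1.1+ and Vg2+ cells (0.49 ± 0.14 and 0.60 ± 0.15, limma adjusted p = 0.0108 and 0.00397). It was higher in Vg1.1+ cells over the mean of the stages (0.28 ± 0.08, limma adjusted p = 0.0287). At the gain of CD73 1 of the 5 rose in each subset, against 4.37% (Vg1.1+) and 5.82% (Vg2+) of tested genes. Itgb2, the partner of Itgal, passed the threshold in no comparison. Itga4, the other partner of beta 7, has no single-symbol probe set and was not analysed here.

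Of 23 tested genes of integrin activation and linkage, 2 fell at the loss of CD24 in Vg1.1+ cells and none rose, and 2 rose and 1 fell in Vg2+ cells. Over all tested genes 6.92% fell in Vg1.1+ cells, and 10.3% rose and 9.91% fell in Vg2+ cells. The list medians were -0.28 and 0.09 (log2), beside -0.04 and 0.02 over all tested genes. Rasgrp1, an exchange factor for Ras downstream of the T-cell receptor, went from 9.35 ± 0.02 (log2, SD, n = 3) to 7.43 ± 0.31 (SD, n = 4) in Vg1.1+ cells (limma adjusted p = 1.07e-06). In Vg2+ cells it went from 8.87 ± 0.38 to 8.65 ± 0.27 (SD, n = 4 each), and the difference of the steps was -1.71 ± 0.28 (limma adjusted p = 0.000469). Rasgrp1 had already fallen in Vg2+ cells at the gain of CD73 (-1.06 ± 0.20, limma adjusted p = 0.000929). Over both steps it fell in Vg1.1+ and Vg2+ cells (-2.45 ± 0.19 and -1.28 ± 0.20, limma adjusted p = 3.03e-09 and 5.4e-05). Cytip, which binds the cytohesins that act on beta 2 integrins, fell at the loss of CD24 in Vg1.1+ cells (-1.02 ± 0.23, limma adjusted p = 0.00488). In Vg2+ cells Apbb1ip, the Rap1 effector RIAM, and Cd47, an integrin-associated protein, rose (0.46 ± 0.11 and 0.67 ± 0.19, limma adjusted p = 0.00345 and 0.016), and Lims1, a focal adhesion protein, fell (-0.54 ± 0.16, limma adjusted p = 0.0208). Of 4 tested integrin ligands, Icam1 and Icam2, ligands of LFA-1, rose at that step in Vg2+ cells (0.49 ± 0.10 and 0.48 ± 0.16, limma adjusted p = 0.00105 and 0.0404), where 10.3% of tested genes rose. Icam1 also rose in Vg1.1+ cells, at the gain of CD73 (0.45 ± 0.11, limma adjusted p = 0.0101) and over both steps (0.42 ± 0.10, limma adjusted p = 0.0041). Over both steps in Vg2+ cells 0 of the 4 passed the threshold in either direction, where 24% of all tested genes did.

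Of 10 other KLF genes tested, none passed the threshold at the loss of CD24 in Vg1.1+ cells, while 2 rose and 1 fell in Vg2+ cells, where 10.3% of all tested genes rose and 9.91% fell. The list medians were 0.06 and 0.06 (log2), beside -0.04 and 0.02. Klf6, a broadly expressed activator, rose from 6.16 ± 0.45 to 7.71 ± 0.09 (log2, SD, n = 4 each) in Vg2+ cells (limma adjusted p = 7.82e-05). In Vg1.1+ cells it read 6.57 ± 0.22 (SD, n = 3) and 6.17 ± 0.54 (SD, n = 4), and the difference of the steps was -1.96 ± 0.37 (limma adjusted p = 0.00215). Klf7 rose with it in Vg2+ cells (0.57 ± 0.15, limma adjusted p = 0.0106) and Klf12 fell (-0.48 ± 0.13, limma adjusted p = 0.0142). Klf12, a repressor, had risen at the gain of CD73 in both subsets (0.84 ± 0.15 in Vg1.1+ cells and 1.09 ± 0.15 in Vg2+ cells, limma adjusted p = 0.000482 and 1.69e-05). It went from 4.08 to 4.92 in Vg1.1+ cells. In Vg2+ cells it went from 3.67 to 4.75 and then to 4.27, beside a table median of 4.548 (log2).

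Of 8 tested genes of trafficking linked to KLF2, S1pr1, the exit receptor, rose at the gain of CD73 in Vg2+ cells (1.26 ± 0.33, limma adjusted p = 0.0132), with 0.92 ± 0.33 in Vg1.1+ cells (limma adjusted p = 0.105). Over the 6 group means S1pr1 and Klf2 gave r = 0.944, over the 22 arrays r = 0.78, and within groups r = 0.456, all across arrays that share the normalisation. The same 3 values were -0.921, -0.545 and -0.054 for Ccr7, a chemokine receptor of lymph node entry, 0.623, 0.35 and -0.286 for S1pr4, and 0.549, 0.387 and 0.191 for Foxo1. Cxcr3, a receptor for interferon-induced chemokines, rose at the loss of CD24 in both subsets (3.70 ± 0.25 in Vg1.1+ cells and 2.47 ± 0.23 in Vg2+ cells, limma adjusted p = 2.61e-09 and 7.02e-08). Its steps differed (1.23 ± 0.35 higher in Vg1.1+ cells, limma adjusted p = 0.0428). Selplg, the selectin ligand PSGL-1, rose in Vg2+ cells at that step (0.94 ± 0.31, limma adjusted p = 0.0348). Foxo1, a factor that drives Klf2 in mouse T cells, and Foxo3 fell in Vg1.1+ cells (-0.50 ± 0.14 and -0.68 ± 0.17, limma adjusted p = 0.0267 and 0.00945). Foxo3 also fell over both steps in Vg1.1+ and Vg2+ cells (-0.51 and -0.53, limma adjusted p = 0.0198 and 0.0258). At the loss of CD24 1 of the 8 rose and 2 fell in Vg1.1+ cells, against 4.28% and 6.92% of tested genes. In Vg2+ cells 3 rose, against 10.3%.

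**Figure D4:**
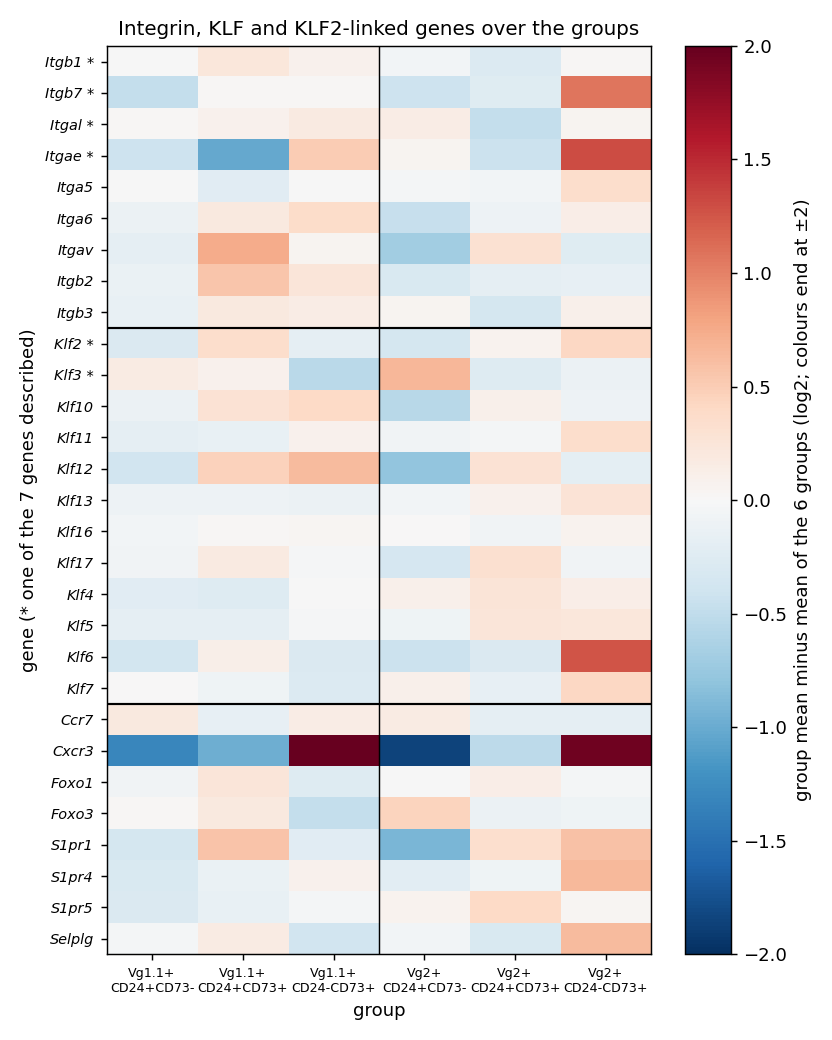
Group mean minus the mean of the 6 groups (colour, log2, ending at ±2) for the tested integrin subunits, KLF genes and trafficking genes linked to KLF2 (in 3 blocks from top to bottom), by group (left to right). Asterisks mark the integrin and KLF genes of the 7 described. Itgb7, Itgae and Klf6 are reddest in Vg2+ CD24-CD73+ cells.

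Markers of other cells were set beside these steps. The B cell marker Cd79b rose at the loss of CD24 in Vg2+ cells (0.99 ± 0.27, limma adjusted p = 0.0111) and fell in Vg1.1+ cells (-1.03 ± 0.29, limma adjusted p = 0.0243). Its step differed between the subsets (-2.02 ± 0.40, limma adjusted p = 0.00345), as did those of Itgb7, Cd44 and Klf2. It was 1 of 2 tested of 7 measured B cell markers, whose mean was 4.16 to 4.29 (log2) on the Vg2+ CD24-CD73+ arrays and 3.71 to 4.36 on the Vg1.1+ arrays of that stage. At the gain of CD73 in Vg2+ cells 3 of 6 tested myeloid markers rose, where 5.82% of all tested genes did. Among them C1qb went from 3.61 to 4.59 (0.98 ± 0.21, limma adjusted p = 0.00322), beside a table median of 4.548 (log2). At that step in Vg1.1+ cells 3 of 4 tested alpha-beta lineage markers fell, where 3.45% of all tested genes did, among them Cd8b1 (-2.29 ± 0.30, limma adjusted p = 1.86e-05). At the loss of CD24 Cd8b1 was higher again (1.18 ± 0.30 in Vg1.1+ and 0.79 ± 0.28 in Vg2+ cells, limma adjusted p = 0.0113 and 0.0476), while Arpp21 of the same list fell (-1.39 ± 0.21 and -1.19 ± 0.19, limma adjusted p = 7.78e-05 and 8.36e-05). Of 5 tested epithelial markers Epcam fell at that step in both (-1.08 and -0.95, limma adjusted p = 0.000299 and 0.000246), and Krt14 rose in Vg1.1+ cells (0.89 ± 0.22, limma adjusted p = 0.00996). The Krt14 group means were 3.60 and 4.49, both under the table median of 4.548. The part of these markers in the changes of the 7 genes was not tested.

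The tested genes most like each of the 7 over the 22 arrays were found by Pearson r. They were Acsbg1 (0.976), Clnk (0.963) and S100a6 (0.962) for Cd44, and Ly6g5b (0.934), S100a4 (0.934) and Ero1a (0.931) for Itgae. For Itgb7 they were Insyn2b (0.961), Pim2 (0.926) and Rnh1 (0.923), and for Itgal Psd4 (0.931), Ctsd (0.917) and Man2b1 (0.916). For Itgb1 they were Myl12b (0.934), Rbck1 (0.931) and Supt20 (0.929), for Klf2 Arhgap17 (0.88), Nod1 (0.862) and Atp10d (0.86), and for Klf3 Bach1 (0.893), Acss1 (0.879) and Lrrc28 (0.879). Within groups the r stayed high for the likest gene of Itgal (0.968 for Psd4), of Itgb7 (0.971 for Insyn2b) and of Itgb1 (0.916 for Myl12b), and was 0.263 for Ly6g5b with Itgae. It was 0.738 for Arhgap17 with Klf2 and 0.592 for Bach1 with Klf3. For Cd44 the within-group r was 0.464 (Acsbg1), -0.13 (Clnk) and 0.235 (S100a6). Over the 6 group means the same genes gave 0.988, 0.993 and 0.975 with Cd44. Itgal and Itgb1 gave r = 0.882 with each other. Itgal and Itgb2 gave 0.757 over arrays, 0.923 within groups and 0.31 over the 6 group means.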

How the data were processed

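RNA of 22 samples was measured on Affymetrix arrays, 1 array per sample. The authors deposited log2 expression values, made by RMA with oligo per the submitters' processing notes, which name no version. No source used here names the build of the probe annotation, so gene positions are not printed from it. Of 16755 probe sets, 14996 list 1 symbol, 1019 several and 740 none, and only the first kind was used. The tested genes were those above 4.548 (log2, the table median) on 3 or more arrays.

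Group means over the 22 arrays were fitted with limma 3.58.1 (R 4.3.3), with empirical Bayes moderation (prior degrees of freedom 4.47, residual 16), two-sided tests and Benjamini-Hochberg adjustment over 8545 genes per comparison. The fit was tested on simulated data with noise drawn independently for each gene and array. Such data hold no variation shared across an array, so that test does not cover it. Alternatives tried were no filter, a stricter filter (above 5.46), a block on the replicate number, empirical Bayes with trend and robust options, only the groups compared, array weights, cyclic loess, the array SD as a covariate, the fit without the 2 narrowest arrays, and each array left out in turn. Named genes are the 7 in every comparison, up to 2 per direction and list among those past the threshold, and the 3 likest genes of each. The 7 genes, lists and tests were chosen with earlier results of these data known. The comparison over the mean of the stages was added after the values had been seen.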

Additional observations from a re-analysis of the deposited data

Results flagged for a closer look

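In groups of 4 arrays, an array was singled out where its gap to the nearest other, over the range of the group, passed Dixon's 95% critical value. Of 28 groups of 4 over the 7 genes, 4 did, and chance alone gives about 1 in 20. Itgb1 read 6.82 on Vg2+ CD24+CD73+ replicate 3, against 7.53 to 7.64 on the others, and Klf2 read 4.95 on Vg1.1+ CD24-CD73+ replicate 1, against 5.70 to 5.74. These are the 2 arrays of narrowest spread, with SDs of 1.71 and 1.61. Cd44 read 7.01 on Vg2+ CD24-CD73+ replicate 1, against 7.27 to 7.29, and Klf2 read 6.37 on Vg2+ CD24-CD73+ replicate 2, against 6.02 to 6.04.

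Loss of CD24 gave steps that differed between the subsets by the limma test of the difference itself for 3 genes, as Vg1.1+ step minus Vg2+ step on the log2 scale. The values were -1.31 for Itgb7 (limma adjusted p = 0.0311, range over 24 alternatives 0.0013 to 0.115), -0.88 for Cd44 (limma adjusted p = 0.000331, range 1.96e-05 to 0.00362) and -0.89 for Klf2 (limma adjusted p = 0.0221, range 0.00529 to 0.0768).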

How the results depend on the processing

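The direction of a called change of the 7 genes turned under no alternative run. Over 22 fits that each left out 1 array, 768 of 819 values kept their direction and their side of the threshold, 30 lost and 2 gained the call and 19 changed sign, and over 9 other settings 689 of 756 did, with 20, 29 and 18. The 37 sign changes concern 18 values, none past the threshold in either fit, the largest 0.43 in size. The deviations of the arrays from their group means did not go together by replicate number. For these, 6 of 51 same-numbered pairs correlated over 0.1 (median -0.158, other pairs 0.042), and 0 of 22 arrays lay closest on average to their own number. Whether same-numbered arrays shared a preparation was not tested. The replicate block left 2 of 4 genes called at the loss of CD24 in Vg1.1+ cells, 1 of 3 at the gain of CD73 in Vg2+ cells and 1 of 3 for the difference of the last steps, and changed the member count by over 1.5 times in no other comparison. The estimate of the array weights did not reach its tolerance. With them 6 genes (main 3) were called over both Vg1.1+ steps, 2 (main 0) between the subsets at CD24+CD73-, 1 (main 0) at CD24+CD73+, 1 (main 0) for the difference of the first steps and 5 (main 2) over the mean of the stages. The array SD as a covariate gave 2 (main 4) at the loss of CD24 in Vg1.1+ cells, 6 (main 3) over both Vg1.1+ steps and 1 (main 0) at CD24+CD73-. Cyclic loess gave 1 (main 0) at CD24+CD73- and 1 (main 0) at CD24+CD73+. The groups compared alone gave 2 (main 0) at CD24+CD73- and 1 (main 3) for the difference of the last steps. With 1 array left out, counts ran from 1 to 3 at the gain of CD73 in each subset, from 2 to 4 at the loss of CD24 in Vg1.1+ cells and from 1 to 4 for the difference of the last steps. Sign changes at the loss of CD24 in Vg1.1+ cells were Itgb1 to 0.02 (cyclic loess), 0.20 (array SD) and 0.06 (without the narrowest arrays), and Itgb7 to 0.03 (array weights), 0.12, 0.29 and 0.14 (the same 3 settings). Cyclic loess took Itgal over both Vg2+ steps to 0.01 and Itgb1 between the subsets at CD24+CD73- to -0.04, and array weights took that Itgal value to 0.09. The array SD took it to 0.16, Itgb1 at the gain of CD73 in Vg2+ cells to 0.01, Itgb1 and Klf2 between the subsets at CD24+CD73- to -0.11 and -0.01, Itgb7 at CD24+CD73+ to -0.06, Itgal in the difference of the last steps to 0.12 (0.06 without the narrowest arrays) and Itgal over the mean of the stages to -0.03. With 1 array left out, Itgal ran from -0.06 to 0.21 at the gain of CD73, from -0.14 to 0.35 at the loss of CD24 and from -0.08 to 0.41 over both steps in Vg1.1+ cells, from -0.25 to 0.10 over both in Vg2+ cells, and from -0.10 to 0.38 between the subsets at CD24-CD73+. Itgb1 ran from -0.30 to 0.06, from -0.05 to 0.30 and from -0.04 to 0.15 for the loss of CD24 in Vg1.1+ cells and both steps in Vg1.1+ and Vg2+ cells, and from -0.02 to 0.09 and -0.10 to 0.26 between the subsets at CD24+CD73- and CD24-CD73+. Itgb7 ran from -0.15 to 0.15 at the loss of CD24 in Vg1.1+ cells and from -0.18 to 0.06 at CD24+CD73-, and Klf3 from -0.01 to 0.31 at the loss of CD24 in Vg2+ cells. Over all genes, array weights moved the count from 668 to 2572 and from 957 to 2608 at the Vg1.1+ steps, from 1994 to 3361 over both, from 984 to 1791 at CD24-CD73+, from 175 to 1203 at CD24+CD73- and from 1 to 436 at CD24+CD73+. They moved it from 8 to 445 and 432 to 1048 for the differences of steps, and from 991 to 2470 over the mean of the stages. The groups compared alone moved the counts of the Vg1.1+ steps to 1328 and 496, that of the Vg2+ gain of CD73 from 1045 to 673, that at CD24+CD73- to 459, that at CD24-CD73+ to 466 and those of the differences to 14 and 236. The replicate block gave 65 at CD24+CD73-, 250 for the difference of the last steps and 650 over the mean of the stages. The array SD gave 1131 at the Vg1.1+ gain of CD73, 354 at CD24+CD73-, 1564 at CD24-CD73+ and 41 for the difference of the first steps. Without the narrowest arrays these were 367 at CD24+CD73-, 15 for the difference of the first steps and 1716 over the mean, no filter gave 115 at CD24+CD73-, and cyclic loess gave 34 for the difference of the first steps. At CD24+CD73+ the settings other than array weights gave 0 to 7. With 1 array left out, counts over all genes ran from 63 to 128 at CD24+CD73-, from 0 to 97 at CD24+CD73+ (highest without Vg2+ CD24+CD73+ replicate 2) and from 7 to 17 for the difference of the first steps (highest without the same array). Without Vg1.1+ CD24+CD73+ replicate 1 they fell to 437 at the gain of CD73 and 623 at the loss of CD24 in Vg1.1+ cells (623 also without replicate 3) and to 265 for the difference of the last steps (276 without replicate 3), and they reached 1977 over the mean of the stages without Vg1.1+ CD24-CD73+ replicate 1. The causes were not tested.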
